A study of Mus musculus with 12 samples.

Results

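Genes best known from neurons were followed through the differentiation of C2C12 cells, an immortalised mouse myoblast line, subcloned from the line C2, whose cells fuse into multinucleate myotubes. These are the 3 neurofilament subunit genes Nefl, Nefm and Nefh, the p75 neurotrophin receptor gene Ngfr, the class III beta tubulin gene Tubb3, the stathmin gene Stmn2 and the growth cone gene Gap43. These 7 of the 55385 genes in the count table were chosen by the measured values themselves, for high levels in myoblasts and loss in myotubes, so their differences between the groups are described here and not tested. The compared groups were 3 total RNA libraries of C2C12 cells differentiated for 7 days into myotubes and 3 libraries of undifferentiated C2C12 myoblasts. The line carries no transgene or agent named in the labels, and nothing in them says whether the samples of a group were separate cultures, so the spread behind each p-value may be a technical one. The series also holds 6 small RNA libraries of mouse embryonic stem cells, not used here. Of the 7 genes, 6 had enough counts to enter the fit across 15932 genes, and Nefh did not.

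Neurofilaments are the intermediate filaments of large axons. The light subunit, Nefl, forms the backbone of the filament, and the medium and heavy subunits, Nefm and Nefh, co-assemble with it and carry long phosphorylated tails that project sideways and help set axon calibre. Ngfr is a member of the tumour necrosis factor receptor family that binds every neurotrophin and, together with sortilin, their uncleaved precursors, and it has also been described on muscle precursor cells. Tubb3 is widely used as a label of young neurons, Stmn2 binds and destabilises microtubules in growth cones, and Gap43 is a protein kinase C substrate on the inner face of the growth cone membrane.

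The libraries held 18335785 to 31119511 counts in myotubes and 22200097 to 54083215 in myoblasts. Markers of myotubes went with the labels. The summed level of Myog, Myh3, Acta1, Ckm and Ttn was 7885, 16283 and 19019 CPM (counts scaled to a common library size by TMM) in myotube replicates 1, 2 and 3, against 154, 107 and 235 CPM in myoblast replicates 1, 2 and 3. The summed level of the myoblast markers Myod1, Myf5 and Des went against the labels, at 888, 2510 and 2123 CPM in myotubes and 417, 708 and 709 CPM in myoblasts. Most of that sum was Des, which myotubes also express, and of these 3 markers Myf5 fell, Myod1 was not called and Des rose, with values given below. Myotube replicate 1 stood apart from the other 2 myotube libraries: the summed level of 8 genes of dividing cells was 920 CPM there, against 252 and 207 CPM in replicates 2 and 3, and 2631 to 2659 CPM in myoblasts. The part of this in the levels below was not tested, and values without this library are given where it moved a result. In bulk RNA, fewer cells that express a gene and less RNA per cell cannot be told apart.

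Nefl stood among the more abundant transcripts of myoblasts and had few counts in myotubes. Nefl (ENSMUSG00000022055.7, GRCm38 chromosome 14, 68083863 to 68089095) had 2.32, 0.326 and 1.28 CPM in myotube replicates 1, 2 and 3, against 166, 375 and 439 CPM in the 3 myoblast replicates. The groups did not overlap, and every myotube library lay more than an order of magnitude below the lowest myoblast library. The mean was 1.31 ± 0.997 CPM in myotubes and 326 ± 142 CPM in myoblasts (SD, n = 3 each). The fitted log2 fold change was -7.98 ± 0.75 (SE of the fit), which leaves 0.396% of the myoblast level. Without myotube replicate 1, which had 60 of the 92 myotube counts, it was -8.85.

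Nefm lies 30450 bases from Nefl on the same chromosome (ENSMUSG00000022054.11, 68119545 to 68125004) and had the same pattern at a lower level. It was at 0.966, 0.782 and 1.10 CPM in myotube replicates 1, 2 and 3, against 43.4, 79.2 and 114 CPM in the myoblast replicates. The 3 myotube libraries lay close together and far below the myoblasts, at 0.95 ± 0.160 CPM in myotubes and 79.0 ± 35.6 CPM in myoblasts (SD, n = 3 each). The log2 fold change was -6.39 ± 0.43 (SE), or 1.19% of the myoblast level. A lncRNA gene, A230070E04Rik, overlaps Nefm in the RefSeq annotation, and how the counting treated strand is not given in the sources used here.

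The third neurofilament gene went against the description under which it was chosen. Nefh (ENSMUSG00000020396.8, GRCm38 chromosome 11, 4938754 to 4948064) had 0, 2 and 1 counts in the myotube libraries, against 1, 0 and 0 counts in the myoblast libraries. Both groups were at or under a floor of 3 counts per group, so no fold change is given. Its neighbour Ap1b1, a clathrin adaptor gene that overlaps one end of Nefh, had 7665 counts in myotubes and 11585 in myoblasts. Scaled by library, its mean was 102 CPM in myotubes and 96.7 CPM in myoblasts.

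Set per length, as TPM (counts over the deposited gene length, scaled to a common total), the myoblast neurofilament message was mostly Nefl. Of the summed TPM of the neuronal intermediate filament genes Nefl, Nefm, Nefh, Ina and Prph, Nefl made up 69.4, 16.3 and 46.1% in myotube replicates 1, 2 and 3, against 84.9, 88.4 and 86.4% in the myoblast replicates. The sum itself was 1.43 to 2.71 TPM in myotubes and 142 to 471 TPM in myoblasts. The TPM ratio of Nefl to Nefm was 4.11, 0.713 and 1.98 in the myotube libraries and 6.55, 8.10 and 6.55 in the myoblast libraries, so it was similar across myoblasts and varied among the few remaining myotube counts.

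**Figure D1:**
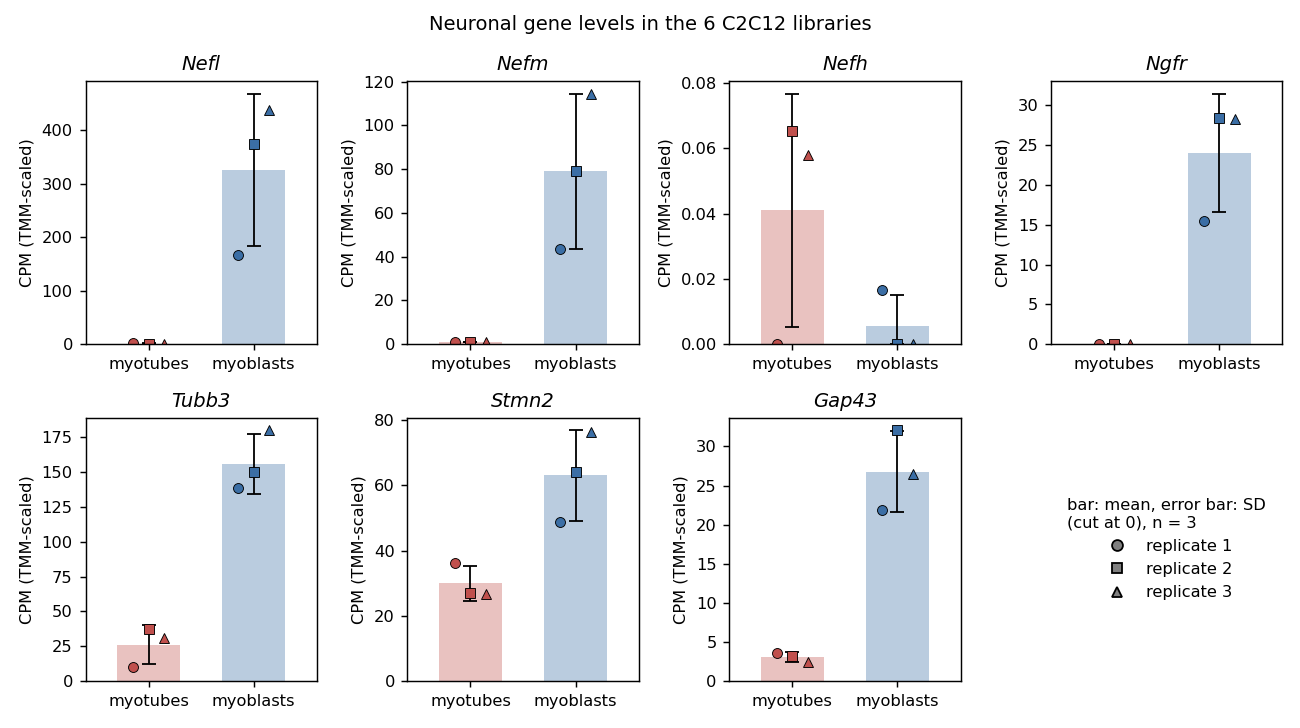
Level of each of the 7 genes in CPM (linear axis from 0) for the 3 myotube and 3 myoblast libraries, with points for replicates, bars for means and error bars for SD. Nefl, Nefm and Ngfr are near 0 in every myotube library, Stmn2 keeps 26.8 to 36.2 CPM there, and the axis of Nefh stays under 0.1 CPM in both groups.

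Ngfr was the gene with the fewest myotube counts among the 6 that could be fitted. Ngfr (ENSMUSG00000000120.6, GRCm38 chromosome 11, 95568818 to 95587698) had 1, 1 and 0 counts in myotube replicates 1, 2 and 3, against 926, 1165 and 604 counts in the myoblast replicates. In CPM these were 0.0387, 0.0326 and 0 in myotubes and 15.5, 28.4 and 28.3 in myoblasts, with no overlap. From the summed counts, scaled by library, the myotube level was 0.123% of the myoblast level, with an exact conditional 95% interval of 0.0149 to 0.444% that covers counting error only. By rank of the mean TPM among 15932 tested genes, Ngfr was 15925th in myotubes and 6044th in myoblasts. Genes with too few counts to be tested are left out of this ranking, and Ngfr entered it through its myoblast counts. Its place near the end in myotubes follows in part from that.

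The RefSeq promoter table (build GRCm38.p6) held 2 of the 7 genes, Ngfr and Tubb3. Both were lower in myotubes, and they are shown because no other of the 7 was found there. Each window is the 250 bases before the transcript start, 5′ to 3′ on the gene's strand, with capitals on GC boxes (GGGCGG) and E-boxes (CANNTG), the motif bound by myogenic helix-loop-helix factors, on either strand. The Ngfr window is chr11:95587699-95587948 on the minus strand, and the Tubb3 window is chr8:123411303-123411552 on the plus strand.
Ngfr promoter: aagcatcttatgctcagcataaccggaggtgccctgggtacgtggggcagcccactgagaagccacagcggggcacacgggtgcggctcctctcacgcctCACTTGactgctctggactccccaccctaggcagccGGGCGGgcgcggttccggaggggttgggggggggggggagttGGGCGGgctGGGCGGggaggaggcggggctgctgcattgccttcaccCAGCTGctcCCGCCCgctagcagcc
Tubb3 promoter: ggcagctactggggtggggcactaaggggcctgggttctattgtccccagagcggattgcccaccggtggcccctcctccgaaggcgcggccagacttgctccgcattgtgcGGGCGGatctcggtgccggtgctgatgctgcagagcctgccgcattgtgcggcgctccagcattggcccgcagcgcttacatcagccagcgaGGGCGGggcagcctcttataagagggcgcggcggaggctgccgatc
The Ngfr window had 4 GC boxes, which start 114, 72, 63 and 16 bases before the transcript start, and 2 E-boxes at 150 and 25 bases. The Tubb3 window had 2 GC boxes, at 138 and 46 bases, and no E-box match, and a TATAA element that starts 30 bases before the transcript start and overlaps a match on the other strand at 31 bases. Over 32851 windows of the same length, 32.7% held a GC box, 66.2% an E-box and 22.8% a TATAA element. The left and right parts of the RE1 element bound by the repressor REST were searched as TTCAGCACC (0.301% of windows) and GGACAG (18.7%) on either strand, and neither is in these letters. The guanine and cytosine content was 70.4% for Ngfr and 68.0% for Tubb3. These matches describe the letters and no factor's binding.

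Tubb3 stayed detectable in all myotube libraries. Tubb3 (ENSMUSG00000062380.4, GRCm38 chromosome 8, 123411553 to 123422015) had 10.1, 37.1 and 30.8 CPM in myotube replicates 1, 2 and 3, against 138, 150 and 180 CPM in the myoblast replicates. Myotube replicate 1 was the lowest, and the groups did not overlap. The mean was 26.0 ± 14.2 CPM in myotubes and 156 ± 21.5 CPM in myoblasts (SD, n = 3 each), a log2 fold change of -2.59 ± 0.44 (SE), or 16.6% of the myoblast level. Beta tubulin genes are similar in sequence, so reads shared among them make these counts less certain.

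Stmn2 did not show the loss for which the genes were chosen. Stmn2 (ENSMUSG00000027500.10, GRCm38 chromosome 3, 8509527 to 8561604) had 36.2, 26.9 and 26.8 CPM in myotube replicates 1, 2 and 3, against 48.6, 64.3 and 76.3 CPM in the myoblast replicates. The groups did not overlap, but the log2 fold change was only -1.07 ± 0.22 (SE), so 47.5% of the myoblast level was left. The mean was 29.9 ± 5.41 CPM in myotubes and 63.1 ± 13.9 CPM in myoblasts (SD, n = 3 each).

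Gap43 kept a smaller share of its myoblast level than Tubb3 and Stmn2 and a larger one than Nefl and Nefm. Gap43 (ENSMUSG00000047261.9, GRCm38 chromosome 16, 42248552 to 42340651) had 3.63, 3.13 and 2.44 CPM in myotube replicates 1, 2 and 3, against 21.8, 32.1 and 26.5 CPM in the myoblast replicates. Both groups were narrow and well apart, at 3.07 ± 0.602 CPM in myotubes and 26.8 ± 5.14 CPM in myoblasts (SD, n = 3 each). The log2 fold change was -3.12 ± 0.25 (SE), or 11.5% of the myoblast level.

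For all 6 fitted genes every myotube library was lower than every myoblast library, which held for 27.2% of the 15932 genes. Since the genes were chosen on this contrast, nothing is read from that count. What remained in myotubes spanned 0.123% for Ngfr (from summed counts), 0.396% for Nefl, 1.19% for Nefm, 11.5% for Gap43, 16.6% for Tubb3 and 47.5% for Stmn2.

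By TPM, a per-length level, the order in myoblasts was Nefl, Tubb3, Gap43, Nefm, Stmn2, Ngfr and Nefh. Nefl averaged 297 ± 154 TPM and Tubb3 249 ± 61.4 TPM in myoblasts, and their ranges overlapped, with Tubb3 above Nefl in myoblast replicate 1 and below it in the other two. Gap43 followed at 52.9 ± 16.9 TPM, Nefm at 41.8 ± 22.0, Stmn2 at 33.9 ± 11.2 and Ngfr at 21.3 ± 8.87 TPM (SD, n = 3), and each of these overlapped its neighbour in the order, whereas the lowest Tubb3 value, 182 TPM, lay above the highest Gap43 value, 69.0 TPM. In myotubes the order was Tubb3 at 33.4 ± 21.3 TPM, Stmn2 at 13.2 ± 4.70, Gap43 at 5.07 ± 1.996, Nefl at 0.940 ± 0.840, Nefm at 0.393 ± 0.0630, Nefh at 0.0240 ± 0.0233 and Ngfr at 0.0193 ± 0.0168 TPM (SD, n = 3). There the ranges of Tubb3 and Stmn2 overlapped, as did those of Nefl and Nefm and of Nefh and Ngfr. By rank of the mean TPM among the tested genes, Nefl was 14122nd in myotubes and 398th in myoblasts, and Tubb3 was 3383rd in myotubes and 507th in myoblasts. This ranking, too, leaves out genes with too few counts to be tested.

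**Figure D2:**
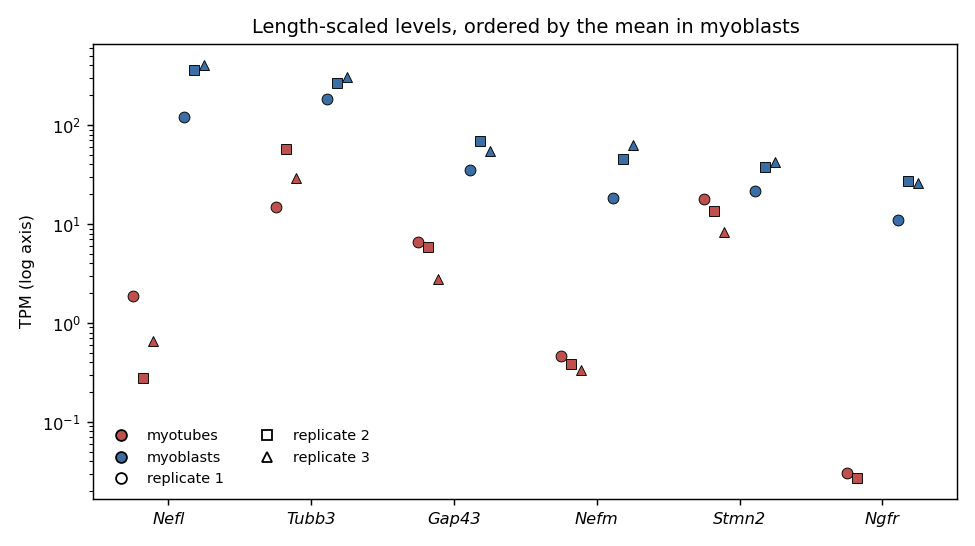
TPM on a log axis for the 6 fitted genes, ordered by their mean in myoblasts, with myotube libraries to the left of myoblast libraries and a marker shape per replicate. Nefl is highest in 2 of 3 myoblast libraries and under 2 TPM in myotubes, and the myotube library in which Ngfr was at 0 has no point.

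Among the myoblast libraries the 6 genes shared their lowest library. All 6 of 6 were lowest in myoblast replicate 1. Of all tested genes, 41.5% were lowest in that myoblast library and 37.6% were highest in it. The highest myoblast library was replicate 3 for 4 of the 6 genes and replicate 2 for the other 2. Nefl in myoblast replicate 1 was at 166 CPM, against 375 and 439 CPM in replicates 2 and 3, and Ngfr at 15.5 CPM, against 28.4 and 28.3 CPM. Myoblast replicate 1 also had the lowest Myod1 and Myf5 levels of the myoblasts, 35.8 and 22.9 CPM, against 85.4 to 96.7 and 39.0 to 50.3 CPM in the others. The part of this in the levels of the 6 genes was not tested. In myotubes replicate 1 was the highest library for 4 of the 6 genes, and the highest for 42.3% of all tested genes, but the lowest for Tubb3. This spread was chosen for description after the values were seen. Without myoblast replicate 1 the log2 fold changes were -8.31 for Nefl, -6.70 for Nefm, -9.82 for Ngfr, -2.68 for Tubb3, -1.24 for Stmn2 and -3.26 for Gap43.

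**Figure D3:**
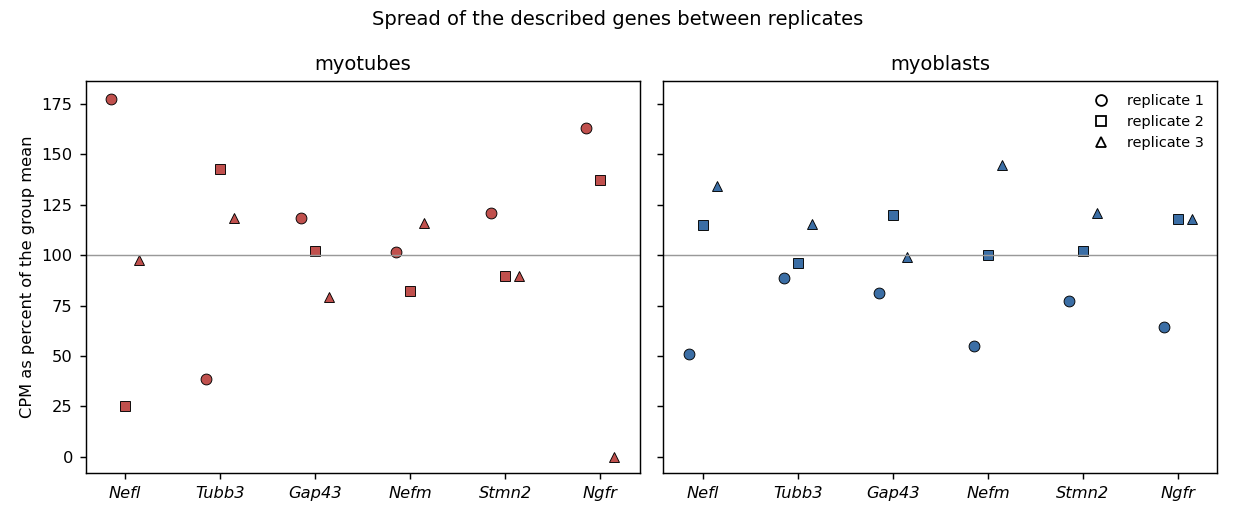
CPM of each of the 6 fitted genes in each library as percent of its group mean, myotubes left and myoblasts right, with a marker shape per replicate and a line at the mean. Replicate 1 is the lowest point for all 6 fitted genes among myoblasts, while in myotubes the order of the replicates differs between genes.

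Other intermediate filament genes did not follow Nefl and Nefm as a group. The list of intermediate filament genes of nerve and muscle had 6 tested members besides the neurofilaments, of which 3 rose and 2 fell in myotubes (edgeR quasi-likelihood test, adjusted p under 0.05), with a median log2 fold change of 0.97 against 0.06 over all tested genes. Across all genes 20.5% were called higher and 19.6% lower in myotubes. Prph, peripherin, the partner of neurofilaments in peripheral neurons, fell to 0.116 to 0.424 CPM in myotubes, against 1.22 to 2.37 CPM in myoblasts (log2 fold change -2.63 ± 0.55 SE, adjusted p = 0.00679). Vim, vimentin, the filament protein of mesenchymal cells, fell by 1.61 on the log2 scale (adjusted p = 0.00696), and Des, desmin, the filament protein of muscle, rose by 1.83 (adjusted p = 0.00872). Sync, the desmin-binding syncoilin, rose by 1.24 (adjusted p = 0.0416), a call lost without any single library except myotube replicate 1 (adjusted p of 0.0782 to 0.124).

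The ligands and co-receptors around Ngfr were called in either direction at about the share of all genes. Of 9 tested genes in the list of neurotrophins and their receptors, 2 rose and 2 fell, 22.2% each, with a median log2 fold change of 0.44. Over all tested genes 20.5% were called higher and 19.6% lower. With the replicate number as a block 4 rose. Bdnf, brain-derived neurotrophic factor, rose to 153, 79.2 and 72.7 CPM in myotubes, against 65.1, 36.0 and 43.6 CPM in myoblasts (1.07 ± 0.34 SE, adjusted p = 0.0360). Its call was lost without myotube replicate 1 (adjusted p = 0.0755), myoblast replicate 2 (0.126) or myoblast replicate 3 (0.111). Sort1, sortilin, which pairs with Ngfr to bind neurotrophin precursors, rose to 11.6 to 27.8 CPM in myotubes, against 2.81 to 3.94 CPM in myoblasts (2.67 ± 0.36 SE, adjusted p = 0.00108).

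The tyrosine kinase receptor genes described here were at 0 or low. Ntrk2, the receptor for Bdnf, which signals beside Ngfr in neurons, had 0 counts in all 6 libraries, as did the ligand gene Ntf3. The floor of 3 counts per group equals 0.0407 CPM over the myotube group and 0.0245 CPM over the myoblast group. It is a guide for a count of 0 that covers counting error only, and no strict maximum. Ntrk3 was at 9.01, 1.24 and 1.10 CPM in myotubes and 1.504, 0.219 and 0.0469 CPM in myoblasts, and missed the threshold (adjusted p = 0.113). It passed with the replicate number as a block (0.00439), with DESeq2 (0.0254) and without myoblast replicate 1 (log2 fold change 4.62, adjusted p = 0.0330). Without myotube replicate 1 its log2 fold change was 0.86, against 2.58 with all libraries. Rtn4r, the Nogo receptor that signals with Ngfr in neurons, was not called (1.31, adjusted p = 0.174) except with the block (0.0315) and without myoblast replicate 1 (log2 fold change 2.59, adjusted p = 0.0134).

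The sortilin relative Sorcs1 fell by 2.67 on the log2 scale (adjusted p = 0.0122, and 0.0503 without myotube replicate 2), with 0.0978 to 0.174 CPM in myotubes and 0.451 to 1.41 CPM in myoblasts. Sorcs2, the ligand gene Ntf5 and the Ngfr relative Nradd were not called, with log2 fold changes of 0.37, 0.44 and -0.41. Nradd, unlike Ngfr, kept 27.3 to 36.2 CPM in myotubes, against 34.9 to 46.9 CPM in myoblasts. The TPM ratio of Ngfr to Nradd was 0 to 0.0746% in myotubes and 23.4 to 33.9% in myoblasts. Sorcs3 had 0 counts in myotubes and 1 in myoblasts, and Lingo1, a partner of Ngfr in neurons, had 31 counts in myotubes and 16 in myoblasts.

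Of 17 genes for the intracellular partners and the cleaving enzymes of Ngfr 16 were tested, and 4 rose and 4 fell, 25% each. Their median log2 fold change was 0.10. Over all tested genes 20.5% were called higher and 19.6% lower, and nothing is read from these counts. The untested gene, Bex1, had 31 counts in myotubes and 0 in myoblasts. Kidins220, a membrane scaffold of neurotrophin receptors, rose to 405 to 530 CPM in myotubes, against 128 to 168 CPM in myoblasts (1.71 ± 0.20 SE, adjusted p = 0.000584). Maged1, an Ngfr-binding adaptor, rose by 0.73 (adjusted p = 0.0262), a call lost without myotube replicate 2 or 3 or myoblast replicate 2 or 3 (adjusted p of 0.0664 to 0.0998). Arhgdia, a GDP dissociation inhibitor of small GTPases, fell by 1.09 (adjusted p = 0.00323), and Prdm4, a zinc finger protein that binds Ngfr, fell by 0.99 (adjusted p = 0.0116).

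**Figure D4:**
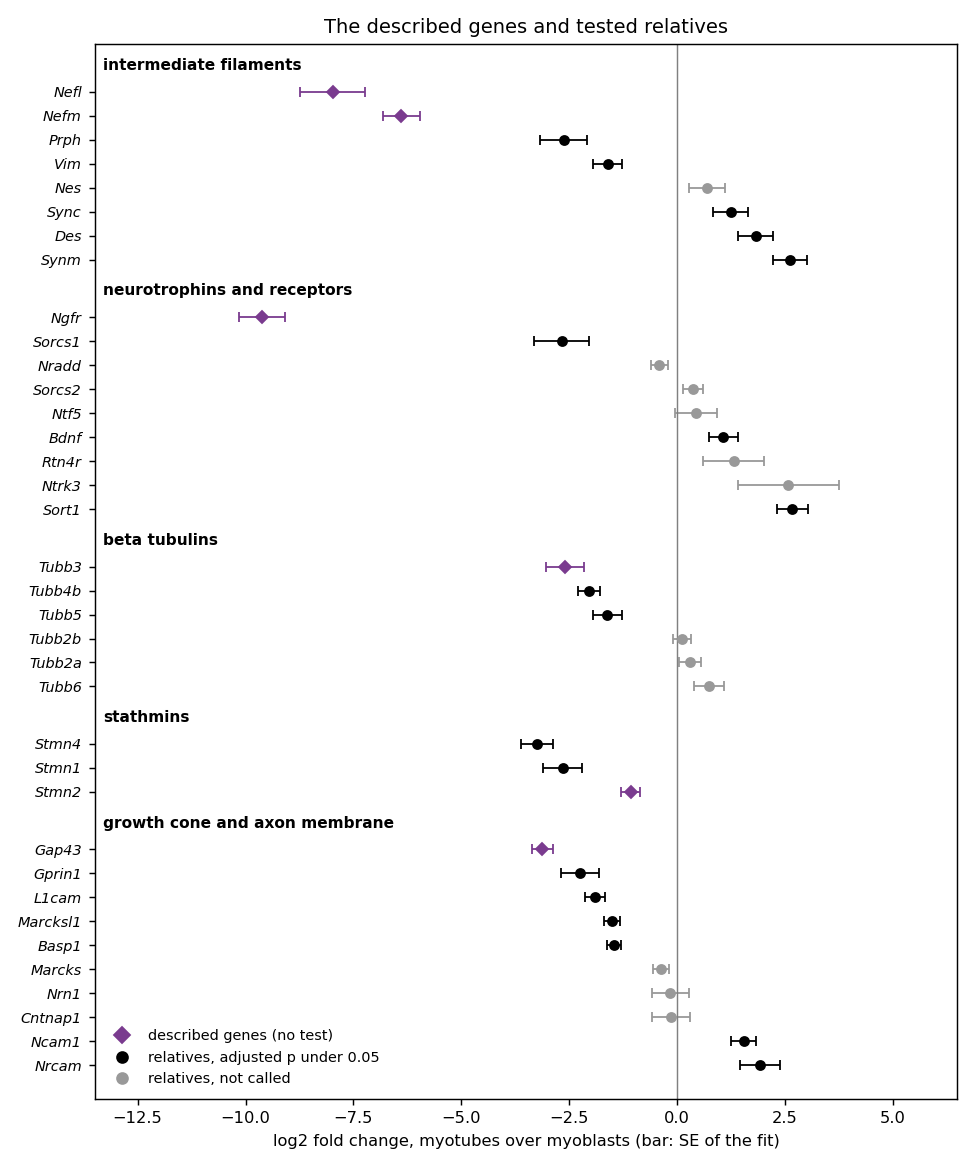
Log2 fold change of myotubes over myoblasts with the SE of the fit for the described genes (diamonds, no test) and tested relatives (circles, black where adjusted p was under 0.05 and grey otherwise), in 5 families. Nefl, Nefm and Ngfr lie at -6.39 or lower, while relatives shown in each of the intermediate filament, neurotrophin and growth cone families lie on both sides of 0.

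Both tested relatives of Stmn2 fell further than Stmn2 did. Stmn4, another stathmin of neurons, fell to 0.619 to 1.33 CPM in myotubes, against 8.16 to 11.3 CPM in myoblasts (-3.24 ± 0.38 SE, adjusted p = 0.000572). Stmn1, the stathmin of dividing cells, fell to 9.10 to 32.9 CPM in myotubes, against 87.8 to 149 CPM in myoblasts (-2.65 ± 0.46 SE, adjusted p = 0.00331, and -3.30 without myotube replicate 1). The TPM ratio of Stmn2 to Stmn1 was accordingly 37.8, 60.5 and 101% in myotube replicates 1, 2 and 3, against 19.0, 14.8 and 21.2% in the myoblast replicates. Whether the log2 fold changes of these genes differ from each other was not tested.

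Of 5 tested beta tubulins besides Tubb3, Tubb4b fell by 2.04 and Tubb5 fell by 1.61 on the log2 scale (adjusted p = 0.000665 and 0.00651), with a median log2 fold change of 0.12. Those calls are 40% of the list's tested genes, beside 19.6% called lower over all tested genes, and nothing is read from so few. Tubb3 made up 0.822, 2.53 and 2.23% of the summed beta tubulin TPM in myotube replicates 1, 2 and 3, against 6.53, 6.27 and 7.56% in the myoblast replicates. Its share was lower in every myotube library, and set against the ubiquitous isotype Tubb5 alone it was 1.81, 13.2 and 11.97% in the myotube libraries and 13.7, 13.2 and 14.9% in the myoblast libraries. Against Tubb5, myotube replicates 2 and 3 lay just under the lowest myoblast library and replicate 1 far under it.

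Genes that work on neurofilaments were called higher and lower at about the shares of all genes. Of 15 tested genes of neurofilament transport, phosphorylation and turnover 3 rose and 3 fell, 20% each (median log2 fold change 0.16). Over all tested genes 20.5% were called higher and 19.6% lower. Among the genes of neurofilament handling Dst, a linker of filaments to other cytoskeleton, rose by 1.14 (adjusted p = 0.00741). The motor gene Myo5a fell by 0.73 (adjusted p = 0.0138, and 0.0611 without myotube replicate 3). The kinase gene Mapk8 rose by 0.66 (adjusted p = 0.0484), a call lost without any single library except myotube replicate 1 (adjusted p of 0.0667 to 0.160) and with RLE scaling (0.0601). Of 9 tested growth cone and axon membrane genes, listed for Gap43, 4 fell (44.4%) and 2 rose (22.2%), and nothing is read from so few. Their median log2 fold change was -0.37, and -0.77 without myotube replicate 1. The Gap43-like membrane protein genes Basp1 and Marcksl1 fell by 1.46 and 1.51 (adjusted p = 0.000508 and 0.000637), and Gprin1, a growth cone protein, by 2.24 (adjusted p = 0.00533). Ncam1, the adhesion molecule shared by nerve and muscle, rose by 1.54 (adjusted p = 0.00398), and Nrcam rose by 1.92 (adjusted p = 0.0127, and 0.0566 without myotube replicate 3).

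The 9 neuronal markers chosen here were at or near 0 in both states, while some other genes of the neuronal lists were not. Among the latter, Nsg1 averaged 85.9 CPM in myotubes and 34.9 CPM in myoblasts, and Uchl1 0.893 and 7.21 CPM. The neuronal markers Rbfox3, Elavl4 and Snap25 had 0 counts in all 6 libraries, and 9 neuronal markers summed to 0.424 to 0.850 CPM in myotubes and 0.281 to 0.802 CPM in myoblasts. None of the 9 had enough counts to be tested. Slc17a6, a glutamate transporter of neurons, had 0 counts in myotubes and 30 in myoblasts. Of the 7 markers of Schwann cells and neural crest, other cells that carry Ngfr, Sox10, Foxd3 and Cdh19 had 0 counts throughout. Their sum, 52.9 to 147 CPM in myotubes and 9.79 to 15.7 CPM in myoblasts, was nearly all Erbb3, which muscle also expresses. Erbb3, the only called gene of the 4 tested on the longer list of Schwann cell and neural crest genes (median log2 fold change 0.94), rose by 3.18 on the log2 scale (adjusted p = 0.000934).

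Over 6 lists of neuronal genes, joined after their values were seen, 42 of 91 genes had enough counts to be tested, and 11 rose and 10 fell. These are 26.2 and 23.8% of those tested, beside the shares of all genes above, with a median log2 fold change of 0.04. Of 11 neuronal microtubule genes 3 rose and 2 fell (median -0.05). Mapt, tau, rose to 3.79 to 20.2 CPM in myotubes, against 0.401 to 0.563 CPM in myoblasts (4.86 ± 0.67 SE, adjusted p = 0.00122). Dclk1, a doublecortin-like kinase, rose by 3.22 (adjusted p = 0.000134), and Kif21b, a kinesin, by 1.44 (adjusted p = 0.0176, and 0.0551 without myoblast replicate 2). Dpysl2, a collapsin response mediator, fell by 1.51 (adjusted p = 0.00496), and Kif1a, a synaptic vesicle motor, fell by 2.57 (adjusted p = 0.00744).

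Of 5 tested pan-neuronal genes 2 rose and 2 fell, 40% each (median 1.06), beside 20.5% and 19.6% of all tested genes. Nothing is read from so few. Uchl1, a ubiquitin hydrolase abundant in neurons, fell to 0.657 to 1.04 CPM in myotubes, against 6.47 to 8.26 CPM in myoblasts (-3.01 ± 0.35 SE, adjusted p = 0.000538), and Celf4, an RNA-binding protein gene, fell by 2.82 (adjusted p = 0.00484, and by 3.82 without myotube replicate 1). Eno2, neuron-specific enolase, rose by 2.62 (adjusted p = 0.00812, 1.95 without myotube replicate 1, and not called without a filter on low counts, 0.0799), and the endosomal protein gene Nsg1 by 1.30 (adjusted p = 0.00946). Of 11 tested synaptic and secretory vesicle genes 3 rose (27.3%) and 1 fell (9.09%), with a median of 0.50, beside the same shares of all genes. Syn2, a synapsin, rose by 2.87 (adjusted p = 0.00439), the vesicle GTPase gene Rab3a by 1.23 (adjusted p = 0.0130) and Vamp2 by 0.80 (adjusted p = 0.0313, lost without myotube replicate 3 and without myoblast replicate 2 or 3, 0.0793 to 0.135). Bsn, a presynaptic scaffold gene, fell by 1.16 (adjusted p = 0.0421), lost without any single library except myoblast replicate 1 (0.0664 to 0.150) and without a filter (0.0667). Of 10 neurotransmitter genes the only one tested, Tph2, was not called (1.25, adjusted p = 0.186).

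**Figure D5:**
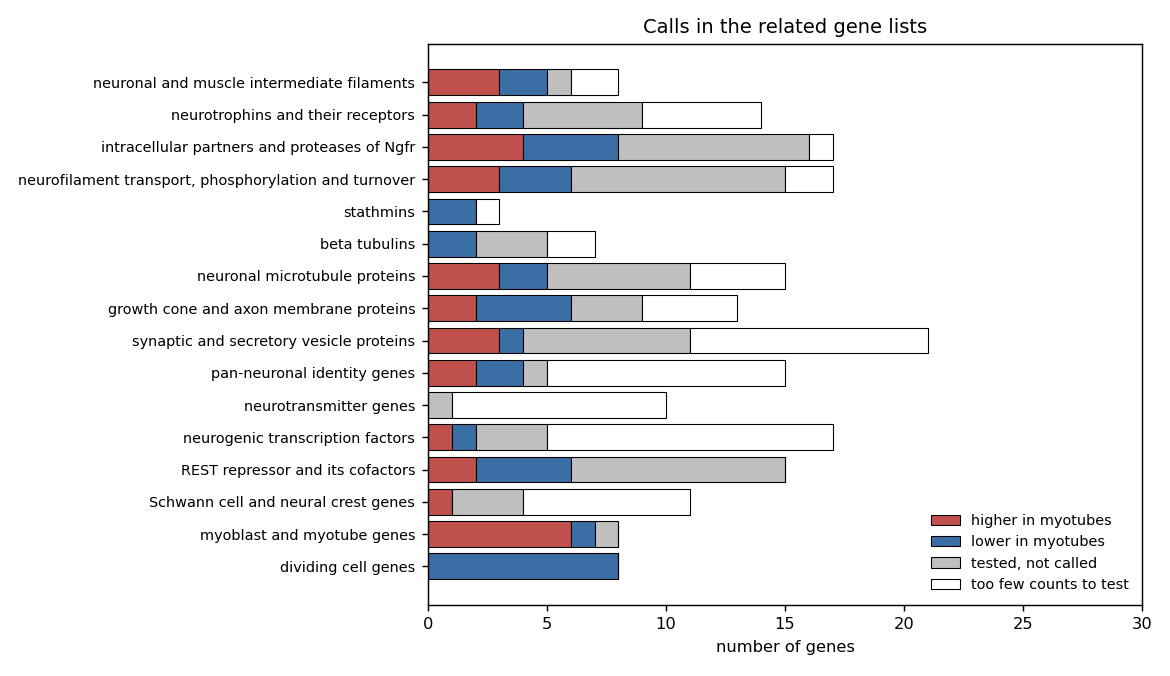
Number of genes in each related list that were called higher or lower in myotubes (adjusted p under 0.05), tested and not called, or too rare to test. The lists of neuronal identity, neurotransmitter and neurogenic genes are mostly too rare to test, and among neuronal lists higher and lower calls occur side by side.

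The remaining lists of this kind were transcription factors of nerve cells and the genes for REST and its cofactors. Of those tested, 20% of the factors fell and 20% rose, and 26.7% and 13.3% of the genes for REST and its cofactors. Over all tested genes 19.6% were called lower and 20.5% higher, so nothing is read from these few calls. Of 17 neurogenic factors 8 had 0 counts in all libraries and 5 were tested, of which Ebf3 fell by 1.21 on the log2 scale (adjusted p = 0.00240) and Pou4f1 rose by 2.09 (adjusted p = 0.0290, median of the list 0.10). Pou4f1 was not called with the block (adjusted p = 0.0588) or without any single library except myotube replicate 1 (0.0560 to 0.106). Rest, the repressor that keeps neuronal genes silent outside neurons, was at 101, 152 and 134 CPM in myotube replicates 1, 2 and 3 and 101, 113 and 127 CPM in the myoblast replicates, and was not called (0.18 ± 0.20 SE, adjusted p = 0.498). It is named outside the rule for named genes. Of 15 tested genes for REST and its cofactors 4 fell and 2 rose (median -0.23). The histone deacetylase gene Hdac1 fell by 0.996 (adjusted p = 0.00842) and the chromatin remodeller gene Smarca4 by 0.96 (adjusted p = 0.0229, and 0.0535 and 0.0701 without myoblast replicate 2 or 3). Sin3a, a corepressor gene, fell by 0.64 (adjusted p = 0.0135, and 0.0581 without myotube replicate 3). The corepressor gene Rcor3 rose by 0.71 (adjusted p = 0.0247, lost without myotube replicate 3 and without myoblast replicate 2 or 3, 0.0589 to 0.104), and the phosphatase gene Ctdsp2 by 0.76 (adjusted p = 0.0292, lost without myotube replicate 2 and without myoblast replicate 1 or 3, 0.0530 to 0.111). Both were also not called when libraries were scaled by size alone (0.0604 and 0.0605), a scaling that shifted the median over all tested genes by -0.125 on the log2 scale.

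Of 8 muscle genes 6 rose and Myf5 fell (median log2 fold change 6.13), with Myh3, embryonic myosin, higher by 8.29 (adjusted p = 0.000237) and Ttn, titin, by 6.18 (adjusted p = 0.000198), while Myf5, a myogenic factor of precursors, fell by 1.76 (adjusted p = 0.00290). Myod1, another myogenic factor, was not called (-0.50, adjusted p = 0.502), but with the block it fell by 0.67 (adjusted p = 0.0457). All 8 genes of dividing cells fell (median -2.87, and -3.98 without myotube replicate 1), among them Mcm5, a replication helicase subunit, by 4.05 (adjusted p = 7.56e-05). For both lists, the shares over all tested genes were 20.5% called higher and 19.6% called lower. Mki67 had a log2 fold change of -2.20 and Top2a of -2.23 (adjusted p = 0.0119 and 0.0243), and without myotube replicate 1 these were -3.11 and -3.47. Top2a was not called without myotube replicate 2 or myoblast replicate 2 or 3 (0.0586 to 0.0636), and neither gene was without a filter on low counts (0.147 for Top2a and 0.0800 for Mki67).

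The genes whose profile over the 6 libraries lay closest to the mean profile of the 6 fitted genes were Hmga1, Hmga1b, Plaur, Areg and Igsf11. Likeness was the Euclidean distance between centred log2 CPM values, 0.523, 0.630, 0.852, 0.853 and 0.997 in this order, over 11735 other genes. This measure rests on the contrast by which the genes were chosen and is given as a description. Hmga1, a chromatin architectural protein gene, was at 2.82, 2.41 and 1.86 CPM in myotube replicates 1, 2 and 3, against 60.9, 80.9 and 110 CPM in the myoblast replicates, and Hmga1b is its near-identical copy, so the counts of both are uncertain. Plaur, the urokinase receptor gene, was at 4.40 to 6.73 CPM in myotubes and 83.9 to 186 CPM in myoblasts. Areg, the growth factor amphiregulin, was at 0.326 to 0.406 CPM in myotubes and 9.93 to 29.5 CPM in myoblasts, and Igsf11, an adhesion protein gene, at 0.734 to 1.14 CPM in myotubes and 11.8 to 28.7 CPM in myoblasts. All 5 were lowest among myoblasts in replicate 1, as the described genes were. That library was the lowest myoblast library for 41.5% of all tested genes. Since the 5 were picked for a like profile over all 6 libraries, nothing is read from this.

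Of the 12 nearest tested neighbours on the chromosomes that overlap none of the described genes, 4 fell, 1 rose and 7 were not called. Over all tested genes 19.6% were called lower and 20.5% higher, and nothing is read from a count of so few. Nefl and Nefm are each other's nearest tested gene, and on the outer sides Dock5, 150291 bases from Nefl, and Stc1, 904285 bases from Nefm, were not called (log2 fold changes -0.48 and -0.95, adjusted p = 0.110 and 0.173). Dock5 was called when libraries were scaled by size alone (0.0450). Beside Ngfr, the prohibitin gene Phb fell by 1.24 (adjusted p = 0.00532) and Nxph3 was not called (0.51, adjusted p = 0.634, and -0.66 without myotube replicate 1). Beside Tubb3, Tcf25 and Def8 were not called (0.30 and -0.02, adjusted p = 0.167 and 0.947), and beside Nefh, Thoc5 was not called (-0.37, adjusted p = 0.167). On its other side the overlapping Ap1b1 was not called (0.08, adjusted p = 0.763), and Gas2l1, 106067 bases away, fell by 0.75 (adjusted p = 0.0254, and 0.0893 and 0.0731 without myoblast replicate 2 or 3). Beside Stmn2, Hey1 was not called (-0.98, adjusted p = 0.152), and the predicted gene Gm5841, with 11 counts in myotubes and 95 in myoblasts, fell by 2.45 (adjusted p = 0.0181, lost without myotube replicate 3 or myoblast replicate 2, 0.0624 and 0.0637, where it changed by -2.35 and -1.80). The nearest tested genes beside Gap43 were Igsf11, 3221393 bases away, which fell by 4.47 (adjusted p = 0.000214), and Zbtb20, a zinc finger gene, which rose by 1.15 (adjusted p = 0.0355, lost without myotube replicate 2 or 3 or myoblast replicate 1 or 2, 0.0609 to 0.125).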

How the data were processed

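Total RNA from 6 C2C12 samples was sequenced from libraries made with the TruSeq Stranded Total RNA Gold kit, per the labels' protocols. The authors deposited raw counts per gene with gene lengths, and a normalised table (a scaled signal) that equals the count times 1 factor per library, 0.522 to 1.89 in the deposited files, checked over genes with more than 50 counts and used only for that check. The submitters' processing notes list DESeq2 1.18.1, featureCounts 1.5.1, STAR 2.5.1b, Salmon 0.12.0, bcl2fastq and the build mm10, with no roles, and the strand setting of counting is not given in the sources used here. Groups came from the sample titles. Only 2 of the deposited tables were used.

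Counts were fitted with edgeR 4.0.16 in R 4.3.3. Low genes were dropped by filterByExpr, libraries were scaled by TMM, the robust quasi-likelihood test was used with no covariates, and p-values were adjusted over 15932 genes by Benjamini-Hochberg at a threshold of 0.05. "Adjusted p" means this test. The SE was taken from the F statistic and the log2 fold change. CPM are TMM-scaled, TPM are unscaled between libraries. The test was tried on simulated data first. No library was a duplicate of another (lowest chi-square over degrees of freedom 105.7, genes with 20 or more counts).

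The members and lists were chosen with earlier results of these data known. Named were the 7 genes, neurotrophin genes with at least 1 count, from every other list the 2 called genes per direction of highest mean level and the called gene with the largest change, the 5 nearest profiles among genes whose log2 CPM averaged 1 or more (prior count of 2), and the nearest tested neighbours in RefSeq. Other names, marker genes included, were chosen as such or after values were seen. Same-numbered samples deviated together (correlations 0.232, 0.189 and 0.170 over the tested genes, with 0.358 for myotube replicate 2 and myoblast replicate 3), so the numbers in the titles were taken as a possible pairing and the block was run as an alternative. The others were RLE scaling, library size scaling, no filter, a mean count of at least 50, DESeq2 1.42.0, leaving out each library, TPM without mitochondrially encoded genes and a prior count of 0.5. Proteins of the genes were not used here. Some genes that the rule names are not reported here.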

Additional observations from a re-analysis of the deposited data

How the results depend on the processing

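The described genes kept their direction under all 12 alternative fits, and no log2 fold change moved by more than the SD between replicates. The genes were chosen for this direction, and leaving out 1 of 3 libraries moves a group mean by less than that SD. Both checks could therefore hardly fail, and only the ranges over the fits are given. Over these fits Nefl ranged from -8.85 to -7.51, Nefm from -6.70 to -6.04, Ngfr from -9.95 to -9.28, Tubb3 from -2.98 to -2.22, Stmn2 from -1.25 to -0.93 and Gap43 from -3.27 to -2.98. The counts over all genes, all lists and the 6 neuronal lists stayed within 1.5 times. With single libraries left out, 2430 to 3599 genes were called higher and 2127 to 3517 lower, and in the neuronal lists 8 to 15 and 9 to 12. With the replicate block 3561 and 3322 genes were called, with 12 and 10 in the neuronal lists, and the pairing changed no call among named genes besides those of Ntrk3, Rtn4r, Pou4f1 and Myod1.

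Of the other 77 genes named and tested, 49 kept their call and direction in every fit. Def8 (log2 fold change -0.02) turned to 0.0445 with a mean count of at least 50 and to 0.00261 without myotube replicate 1, and ranged from -0.13 to 0.0536 with single libraries left out. Nxph3 (0.51) ranged from -0.66 to 0.93, below 0 without myotube replicate 1. Ap1b1 (0.08) turned to -0.037 with library size scaling and ranged from -0.11 to 0.18 with single libraries left out, below 0 without myotube replicate 2 (-0.11) or myoblast replicate 1 (-0.021). With scaling by library size only, calls were lost for Bdnf (adjusted p = 0.0610), Maged1 (0.0717), Mapk8 (0.0736), Sync (0.0510) and Vamp2 (0.0627), and without a filter for Sync (0.123). The cause was not tested.

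Small lists moved by more than 1.5 times in some fits. Higher calls ranged from 2 to 5 for intermediate filaments (3 in the reported fit), 1 to 4 for neurotrophins (2), 1 to 4 for neurofilament handling (3), 0 to 1 for beta tubulins (0) and neurotransmitter genes (0), 1 to 3 for growth cone genes (2) and pan-neuronal genes (2), 0 to 1 for neurogenic factors (1) and 0 to 3 for REST cofactors (2). Lower calls ranged from 1 to 2 for intermediate filaments (2), neurotrophins (2), neurogenic factors (1) and muscle genes (1), 1 to 4 for neurofilament handling (3), 0 to 1 for synaptic genes (1), neurotransmitter genes (0) and Schwann cell genes (0), 3 to 7 for REST cofactors (4) and 4 to 8 for dividing cell genes (8). The Schwann cell list's median was 0.18 without myotube replicate 1, and that of growth cone genes -0.77. Depth limits Ngfr in myotubes and Nefh in both groups, which rest on 3 counts or fewer per group.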
